A study of Homo sapiens with 18 samples.

Results

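HCC827 is an established human lung adenocarcinoma cell line with an activating deletion in the kinase domain of EGFR. The comparison set Oxford Nanopore (ONT) long-read cDNA sequencing against Illumina short-read sequencing of the same HCC827 RNA, and its members were 6 of the 18 libraries of the series. The 3 ONT and the 3 Illumina libraries carry the replicate numbers of 3 RNA samples from separately grown cultures. All 6 libraries started from poly(A)-selected mRNA of HCC827 cells that also contained sequins, synthetic RNAs of known amount. For ONT, 1.5 ng of mRNA went through 14 cycles of PCR, and the cDNA was read on a PromethION. For Illumina, 3.75 ng was fragmented for 15 min and, with a directional kit, amplified for 11 cycles and sequenced from both ends at 75 nt. RNA input, amplification, fragmentation and sequencer therefore change together, and their parts in a difference cannot be told apart. Each library gave whole-number counts per gene, and 58444 genes were joined by Ensembl identifier.

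In a short-read library an mRNA is broken into pieces, so a long transcript gives more reads than a short one present in the same number of molecules. In a long-read cDNA library a molecule ideally gives 1 read whatever its length, although long cDNAs are harder to copy from end to end and short cDNAs are amplified and loaded more readily. Long reads also carry more errors per base than short reads, which matters for genes that have near-identical copies. Ribosomal protein genes are the best-known case: their short, abundant mRNAs have been copied back into the genome many times as processed pseudogenes, which are intronless and mostly not transcribed.

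Gene totals were 91344058 to 116497461 counts in the ONT libraries and 10020699 to 36838573 in the Illumina libraries, of which replicate 2 had the lowest. Sequins took 0.56 to 1.42% of ONT and 1.88 to 3.71% of Illumina counts. ONT replicate 2 stood apart from the other ONT libraries, with a mean chi-square per gene of 104 and 115.9 against them and 49.6 between those. The biological coefficient of variation was 23.3% among ONT libraries, 15.6% without replicate 2, and 14.2% among Illumina libraries. Epithelial markers were present in every library: the 12 identity markers summed to 11599 to 16027 CPM (counts scaled to a common library size) in ONT and 6605 to 9276 in Illumina. Markers of other cells summed to 60.5 to 81.1 and 65.4 to 79.1 CPM, nearly all of it CD68, a lysosomal protein made by many cell types. CD3E and HBB, markers of T cells and red blood cells, had at most 4 counts in any library, as did COL3A1 and DCN of fibroblasts. COL1A1, of the same cells, had 72 to 129 ONT and 134 to 437 Illumina counts, and PDGFRB 119 to 188 and 1 to 3. The endothelial markers PECAM1 and VWF had 48 to 75 and 11 to 36 ONT counts, and 10 to 52 and 13 to 62 Illumina counts.

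Of 25956 genes tested with edgeR, 10175 (39.2%) were called higher and 9733 (37.5%) lower in ONT at an adjusted p below 0.05, together 76.7%. Beyond a 2-fold difference, 7201 genes (27.7%) were called higher and 5545 (21.4%) lower, together 49.1%. The 3 ONT libraries lay wholly above the 3 Illumina libraries for 40.1% of genes and wholly below for 38.6%. Without ONT replicate 2, 9842 genes were called higher and 10156 lower. A call by itself therefore says little about a gene, and the lists below are read by their medians and their share of calls beside these values. The log2 ratios, ONT over Illumina, had a median of 0.01.

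These ratios depend on a zero point. The main scaling (trimmed mean of M values, TMM) multiplied the ONT library sizes by 0.541 to 0.632 and the Illumina sizes by 1.65 to 1.79, and all CPM here refer to those sizes. With the plain gene totals as library sizes the log2 ratios were lower by a median of 1.59, 4968 genes were called higher and 17139 lower, and calls towards ONT fell from 51.1% to 22.5% of all calls. A ratio or median between 0 and about 1.59 thus lies below 0 on that scale, whether or not this is repeated beside it. Genes at or near 0 on 1 platform moved less, such as RPS29P8, from 15.66 to 15.15.

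The composition of the libraries differed most in 4 classes of genes. Ribosomal protein genes took 13.03 ± 0.423% of ONT counts and 3.50 ± 0.127% of Illumina counts (mean ± SD, n = 3 each). Their processed pseudogenes took 16.2 ± 0.485% and 2.29 ± 0.0736%. Mitochondrial chromosome genes took 9.43 ± 0.496% of Illumina counts and none in ONT. Other protein-coding genes filled 44.2, 46.4 and 45.8% of the ONT libraries against 70.6, 71.2 and 68.7% of the Illumina libraries. These shares are free of the scaling, and the ONT and Illumina libraries did not overlap in any of them. Ribosomal protein genes, their pseudogenes and mitochondrial chromosome genes each gave p = 0.10 by exact permutation test (two-sided, 3 against 3 libraries). This is the smallest p the design allows, and it was 0.107 after adjustment over 49 shares. The class of other protein-coding genes was not tested by itself, and all protein-coding genes together gave the same 2 values.

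**Figure D1:**
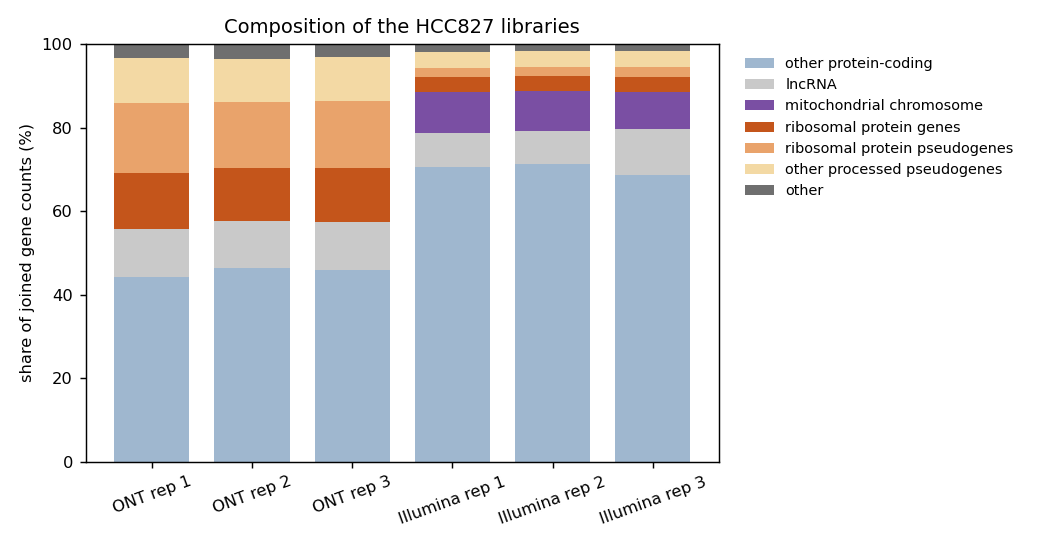
Share of joined gene counts (%, y axis) by gene class in each of the 3 ONT and 3 Illumina HCC827 libraries (x axis, stacked bars). Ribosomal protein genes and their pseudogenes fill 13.03 and 16.2% of the ONT bars on average, and the mitochondrial chromosome is in the Illumina bars alone.

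The ribosomal protein gene with the plainest case of copies is RPL41, which codes for the smallest protein of the large ribosomal subunit. RPL41 (ENSG00000229117, GRCh38 chr12:56116590-56117967, + strand, overlapping no other gene) had 689394, 535391 and 523529 ONT counts and 10359, 3156 and 11373 Illumina counts. A search of the GRCh38 autosomes and X for its coding sequence, with up to 5 mismatches, found 12 copies, 6 of them exact. The sequences are shown because reads of such copies differ in few or no bases from reads of the parent. Capitals mark bases that differ from the parent or run past its coding sequence. RPL41P5 lies at chr12:93083598-93083675 (- strand) and RPL41P1 at chr20:21755270-21755350 (+ strand). The copy in an intron of IL6ST, a cytokine receptor subunit, lies at chr5:55944656-55944733 (+ strand). The copy in an intron of DGKI, a diacylglycerol kinase, lies at chr7:137513859-137513933 (+ strand), where the annotated pseudogene ends before the stop codon.
RPL41 coding sequence: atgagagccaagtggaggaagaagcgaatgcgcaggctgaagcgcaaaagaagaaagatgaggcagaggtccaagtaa
RPL41P5: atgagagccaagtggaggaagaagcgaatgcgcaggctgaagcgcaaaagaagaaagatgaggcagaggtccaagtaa
IL6ST intron copy: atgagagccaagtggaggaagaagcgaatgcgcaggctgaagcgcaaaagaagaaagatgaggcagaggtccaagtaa
DGKI intron copy: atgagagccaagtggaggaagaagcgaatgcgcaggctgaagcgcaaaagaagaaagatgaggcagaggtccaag
RPL41P1: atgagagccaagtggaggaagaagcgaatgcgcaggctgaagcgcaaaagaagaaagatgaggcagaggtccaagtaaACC

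The copies shown held ONT counts of the same order as the parent's. RPL41P5 had 551206, 401861 and 418830 ONT counts against 2765, 896 and 2701 Illumina counts. The pseudogene in IL6ST had 648048, 474596 and 493559 against 3082, 956 and 3459, and that in DGKI 674888, 492086 and 511553 against 17506, 5754 and 17571. The copies shown were of the order of RPL41 in every ONT library, while in Illumina they ranged from well below it to above it. Other copies were lower in ONT. The exact copy RPL41P2 had 400834 ONT counts, and the genes that hold a copy with 2 to 5 mismatches had 26 to 11333. The 16 annotated genes that hold a copy, 7 of them not pseudogenes, summed to 13880713 ONT counts (4.61% of all) and 210444 Illumina counts (0.259%). Of these genes, 10 had at least 100000 ONT counts and 0 had as many Illumina counts. Some of these genes lie at the same copy, such as HERC2 with 402548 ONT counts and RPL41P2 inside it with 400834. Both enter the sum and the tally, so a read counted for both genes adds to the sum more than once. The splicing factor gene RBFOX2 (chr22:35738736-36028824) has an exact copy at chr22:35838580-35838657 and held 1865238 ONT and 21970 Illumina counts, a log2 ratio of 6.11 ± 0.18 (edgeR adjusted p = 3.08e-16; ± is the standard error here and below).

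RPS28, a protein of the small subunit, had the highest ratio of the 79 ribosomal protein genes. A pair of sequences shows its situation: RPS28P4, in an intron of the ciliary gene ARMC9 (chr2:231256097-231256306, + strand), differs from the RPS28 coding sequence by the 1 base in capitals.
RPS28 coding sequence: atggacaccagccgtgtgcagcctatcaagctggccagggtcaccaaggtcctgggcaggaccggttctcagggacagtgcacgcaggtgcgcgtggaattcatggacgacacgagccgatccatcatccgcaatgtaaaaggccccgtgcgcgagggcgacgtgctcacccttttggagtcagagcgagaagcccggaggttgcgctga
RPS28P4: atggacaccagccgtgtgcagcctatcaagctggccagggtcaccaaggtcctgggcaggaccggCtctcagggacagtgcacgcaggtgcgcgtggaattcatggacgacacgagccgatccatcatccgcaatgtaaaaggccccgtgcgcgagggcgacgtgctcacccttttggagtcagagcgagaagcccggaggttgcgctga
RPS28 (chr19:8321158-8323340) had 400569, 333693 and 261496 ONT counts and 490, 123 and 436 Illumina counts. RPS28P4 had 407401, 337170 and 265922 ONT counts and 348, 104 and 268 Illumina counts. This parent and this copy stood near equality in each ONT library, and both were far lower in Illumina. Another copy differed: RPS28P7 had 1056611 ONT counts to the parent's 995758, but 32720 Illumina counts to its 1049. The ratio of RPS28 was 9.60 ± 0.21 (edgeR adjusted p = 3.36e-17), and that of the parent and its pseudogenes summed was 6.16.

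A more diverged copy shows the other end. RPS29P8, an intergenic pseudogene of the small-subunit gene RPS29 (chr2:148595158-148595328, + strand), differs from the RPS29 coding sequence by the 11 bases in capitals.
RPS29 coding sequence: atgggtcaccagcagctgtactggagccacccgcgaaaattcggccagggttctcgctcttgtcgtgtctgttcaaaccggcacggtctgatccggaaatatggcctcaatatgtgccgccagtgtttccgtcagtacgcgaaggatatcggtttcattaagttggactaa
RPS29P8: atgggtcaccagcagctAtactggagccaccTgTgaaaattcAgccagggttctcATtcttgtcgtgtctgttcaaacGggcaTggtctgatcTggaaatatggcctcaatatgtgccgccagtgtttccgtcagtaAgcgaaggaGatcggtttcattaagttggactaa
RPS29P8 had 9307, 7009 and 5351 ONT counts and 0 in all 3 Illumina libraries. Set against a floor of 3 counts over the Illumina group, it was at least 5864-fold higher in ONT. RPS29 itself had 367217, 256689 and 226540 ONT counts and 8154, 1720 and 7268 Illumina counts.

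All 79 ribosomal protein genes were called higher in ONT, against 39.2% of all genes. Their log2 ratios ran from 0.91 to 9.60 with a median of 3.62. With gene totals as library sizes 77 were higher and 1 lower, with a median of 2.03. RPS27, of the small subunit (chr1:153990762-153992155), had 2422, 1606 and 2125 CPM in ONT and 13.2, 10.4 and 15.5 in Illumina. Its ratio of 7.29 ± 0.24 (edgeR adjusted p = 2.16e-15) was the highest among all protein-coding genes that overlap no other gene and reach 5 CPM on both platforms. In Illumina its pseudogenes held 93.3% of the family's counts and in ONT 83.7%, with RPS27P3 at 11783 Illumina counts to the parent's 1932, and the summed family was at 6.04. RPL9 followed in the same class with 6.23 ± 0.19, and RPL41 with 5.83 ± 0.18. RPL39, a short protein at the exit of the ribosomal tunnel (chrX:119786504-119791630), had 3442, 3520 and 3642 CPM in ONT and 50.6, 48.4 and 47.9 in Illumina, where RPL39P3 had 44613 counts to its 6902. RPL36A had a ratio of 7.28 ± 0.21, but it shares exons with the readthrough gene RPL36A-HNRNPH2, which held 363323 ONT counts to its 357730. In Illumina RPL36AP37 had 38261 counts to the 1901 of RPL36A. At the low end stood RPL4, whose 1225, 949 and 1279 CPM in ONT against 622, 554 and 665 gave 0.91 ± 0.17. RPL4 is the member that gene totals turn, to -0.70.

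Of 1587 annotated processed pseudogenes of ribosomal protein genes, 846 passed the filter on low counts. Of these, 817 were called higher and 8 lower, with a median log2 ratio of 6.18, or 5.84 with the 68 members at 0 on 1 platform set to their bound. With gene totals 762 were higher (median 4.67). A pseudogene can pass through its ONT counts alone, so these counts describe the tested members only. Over all 1587, the counts rose with identity to the parent transcript. The 297 below 80% identity had a median of 0 ONT and 0 Illumina counts, and the 655 from 80 to 90% had 12 and 1. The 426 from 90 to 95% had 1068 and 9, and the 137 from 95 to 98% had 37905 and 205. The 53 from 98 to 99.5% reached 201753 and 6224, and the 19 above that 487048 and 27931. Pseudogenes of intermediate identity (95 to 98%) therefore held 31.9% of all ONT pseudogene counts and 13.4% of all Illumina pseudogene counts, and those at 99.5% or more 23.5 and 34.8%. The median log2 ratio of tested members was 4.11 in the lowest identity class, highest at 6.85 from 95 to 98%, and 3.83 in the highest.

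Each parent was also summed with its pseudogenes. Such a sum is free of the choice between the copies it includes if each read was counted once. How reads with several matches were counted is unknown here. Only pseudogenes named after the parent were included, so unnamed copies, such as those of RPL41 in IL6ST and DGKI, are left out. The sums can therefore still depend on which copy a read was assigned to. In the 77 families, pseudogenes held a median of 49.8% of the family's ONT counts and 29.8% of its Illumina counts. The most counted pseudogene reached at least 80% of its parent's count in 37 families in ONT and in 23 in Illumina. The summed level was above the Illumina level in 77 of 77 families, with log2 ratios of 1.72 to 6.99 and a median of 3.87. With gene totals the range was 0.11 to 5.39. RPL10, a ribosomal protein at the tRNA site, is an example: RPL10P16 had 1325129 ONT counts to the parent's 1320391, and 68735 Illumina counts to its 79147.

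Counts of pseudogenes inside other genes reappeared in the counts of their hosts. Of the tested protein-coding genes, 533 have a ribosomal protein pseudogene in an intron. In ONT the pseudogene's count reached at least 50% of the host's in 173 of them, and in Illumina in 61. It lay within 90 to 110% of the host's in 100 hosts in ONT and in 21 in Illumina. How strand, overlapping genes and reads with several matches were handled in counting is not given in the sources here, so how a read came to count for both genes was not tested.

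ARMC9, the host of RPS28P4, had 412729, 344074 and 269398 ONT counts and 915, 274 and 742 Illumina counts, and RPS28P4 amounted to 98.5% of the first and 37.3% of the second. Its log2 ratio was 8.71 (edgeR adjusted p = 3.85e-17). PNPLA8, a mitochondrial phospholipase gene, had a ratio of 7.37, with RPL7P32 at 99.8% of its ONT and 38.6% of its Illumina count. CSF1R, the receptor of the macrophage growth factor, had high counts on both platforms: RPL7P1 in its intron equalled 99.96% of its 339667, 240376 and 304827 ONT counts and 99.2% of its Illumina counts. SMOC1 resembled it, with RPL7AP6 at 99.997 and 99.99%. In HERC2, a very large ubiquitin ligase gene, RPL41P2 held 99.6% of the ONT and 33.1% of the Illumina count. HERC2 had a ratio of 5.59 ± 0.19. The redox enzyme gene TXNRD1 had 2.96 ± 0.16, with RPL18AP3 at 99.2 and 79.6% of its counts.

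The count of the largest intronic gene was also taken away from its host. Over 515 hosts with counts left, the median log2 ratio went from 0.21 to -0.68, beside -0.32 for the 9847 protein-coding genes with no intronic gene. The other host classes, with nothing taken away, were at -0.32 for 1914 hosts of another intronic processed pseudogene and at -0.67 for 2816 hosts of other intronic genes. Where the intronic gene has the higher ratio, taking it away lowers the host's by construction. HERC2 went to -1.73, CSF1R to -1.21, TXNRD1 to -2.01 and PNPLA8 to -0.68, while ARMC9 stayed at 3.35 with 15708 ONT counts left. No test was made on these remainders.

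**Figure D2:**
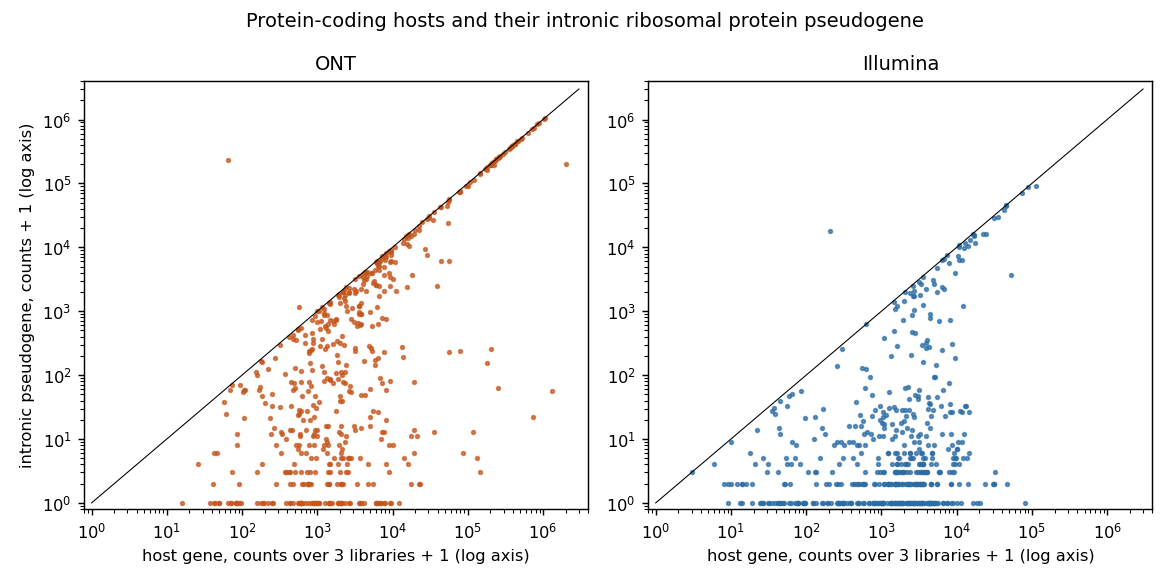
Counts over the 3 libraries plus 1 of 533 protein-coding hosts (x axis, log scale) and of the ribosomal protein pseudogene in their intron (y axis, log scale), in ONT (left) and Illumina (right), with a line of equality. In ONT 100 points lie within 90 to 110% of the host, and in Illumina 21.

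Near-equal counts were also tallied over all overlapping gene pairs, the hosts above included. Among 4759 such pairs with at least 1000 ONT counts, a limit set on ONT alone, the counts of both genes lay within 10% of each other in 29.9% of pairs in ONT and in 13.7% in Illumina. For the 2085 pairs whose exons overlap on opposite strands these shares were 26.1 and 10.0%. The pairs named next were chosen for the most nearly equal ONT counts together with clearly unequal Illumina counts. Their contrast between the platforms was thus fixed by the choice. The antisense gene ARRDC1-AS1 had 4771 ONT counts to 4776 of ARRDC1, an adaptor of membrane protein turnover, and 639 Illumina counts to 4493. ARRDC1 did not pass the test (log2 ratio -0.22), whereas ARRDC1-AS1 was called higher at 2.58 ± 0.23 (edgeR adjusted p = 4.77e-09). Pairs with a ribosomal protein pseudogene were among them. TAPT1-AS1 and RPS21P4 had 147574 and 147443 ONT counts and 407 and 82 Illumina counts. RPL23AP18 had 56315 ONT counts to 56420 of the overlapping ENSG00000234915, and 24 Illumina counts to 235.

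The nuclear-encoded subunits of oxidative phosphorylation, which build the respiratory chain and ATP synthase of mitochondria, formed a further group of short mRNAs. Of 78 tested, 73 were called higher and 1 lower, with a median log2 ratio of 2.94. With gene totals 55 were higher and 12 lower (median 1.33). NDUFB1, a small subunit of complex I (chr14:92116122-92121917), had 278, 205 and 253 CPM in ONT and 12.4, 9.74 and 12.9 in Illumina, a ratio of 4.39 ± 0.21 (edgeR adjusted p = 4.30e-13). ATP5F1E, the epsilon subunit of ATP synthase, had 4.67 ± 0.20. The 1 lower member was SDHA, the flavoprotein of succinate dehydrogenase, at -0.60 ± 0.18 (edgeR adjusted p = 0.00518). Its exon length is 8703 nt against a median of 2545 nt in the list. Exon length here and below is the union of all exons annotated for a gene. It can exceed the length of any 1 mRNA (the ribosomal protein genes have a median of 3228 nt), so dividing by it can overcorrect. With Illumina counts divided by exon length SDHA was at 0.75.

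The mitochondrial genome's own genes stood at the opposite end. All 13 of its mRNAs and all 22 of its tRNA genes had 0 counts in each ONT library. MT-CO1, the catalytic subunit of complex IV, had 5871, 4982 and 7571 CPM in Illumina, and was at least 371230-fold lower in ONT against the floor of 3 counts over the group. MT-ATP6, of ATP synthase, had 4797, 5159 and 5007 CPM, and the ribosomal RNA gene MT-RNR2 13709, 12031 and 10715. The sources used here do not say whether ONT alignments to this chromosome were counted at all, so these zeros are no measure of mitochondrial RNA.

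The lists of small RNAs and of mRNAs without a poly(A) tail depended on the scale. Of 45 tested replication-dependent histone genes, whose mRNAs end in a stem-loop instead of a poly(A) tail, 32 were called higher and 0 lower, with a median of 1.88. With gene totals 19 were higher and 16 lower, and with Illumina counts per exon length 11 and 14 (median -0.14). H4C12, a histone H4 gene (chr6:27831174-27831560), had 44.02, 37.4 and 41.4 CPM in ONT and 0.794, 1.007 and 1.002 in Illumina (5.47 ± 0.24, edgeR adjusted p = 7.33e-14). H2BC5, a histone H2B gene, was at 0.73 ± 0.23 and turned to -0.85 with gene totals and to -1.24 per exon length. Of 186 small nuclear and nucleolar RNAs, which guide splicing and the modification of ribosomal RNA, 150 were called higher and 2 lower (median 2.82, 1.21 with gene totals). Per exon length 17 were higher and 113 lower, with a median of -2.11. Of 28 host genes of snoRNAs 23 were called higher and 3 lower, and with gene totals 13 against 8. Among them SNHG25 had 85.8, 93.2 and 88.9 CPM in ONT and 1.14, 1.23 and 1.27 in Illumina, a ratio of 6.20 ± 0.23.

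MicroRNA precursors had more calls towards Illumina. Of 318 tested, 98 were called higher and 186 lower in ONT, with a median log2 ratio of -2.10, and per exon length 8 and 290. A count on such a locus need not come from the microRNA, since most precursors lie inside longer genes. The mature sequences of the precursors with the highest ratio, the highest level and the lowest ratio are shown with the seed (bases 2 to 8, by which a microRNA finds its targets) in capitals, from RefSeq on GRCh38.p14. Hsa-miR-611 lies at chr11:61792500-61792522, hsa-miR-3654 at chr7:133034860-133034878 and hsa-miR-4498 at chr12:120155473-120155494, all on the - strand, and they share no seed.
hsa-miR-611: gCGAGGACcccucggggucugac
hsa-miR-3654: gACUGGACaagcugaggaa
hsa-miR-4498: uGGGCUGGcagggcaagugcug
MIR611 lies within an exon of TMEM258, a short gene of the oligosaccharyltransferase complex, and had 413, 314 and 419 CPM in ONT and 0.382, 0.056 and 0.334 in Illumina (10.27 ± 0.33, edgeR adjusted p = 3.14e-15). MIR3654, inside the mitochondrial cristae gene CHCHD3, had 3464, 2457 and 3944 CPM in ONT and 192, 175 and 225 in Illumina, a ratio of 4.06 ± 0.20. MIR4498, inside the translational regulator GCN1, had 0 ONT counts and 229 Illumina counts, at least 94.0-fold lower in ONT.

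Long transcripts were mostly lower in ONT on counts. Of 50 very long mRNAs, 5 were called higher and 43 lower, with a median log2 ratio of -2.29. With Illumina counts per exon length 21 were higher and 7 lower (median 0.33). Of the 5, HERC2 and NBEAL1 are hosts or overlap partners of ribosomal protein pseudogenes. NBEAL1, for example, had a ratio of 4.32 ± 0.19, with RPL12P16 at 99.9% of its ONT count. MUC16, the membrane mucin that carries the CA125 antigen (chr19:8848844-9010390), had 17.6, 26.5 and 13.1 CPM in ONT and 279, 341 and 219 in Illumina. Its ratio of -3.87 ± 0.26 (edgeR adjusted p = 5.84e-10) was the lowest among the called protein-coding genes that overlap no other gene and reach 5 CPM on both platforms. Fatty acid synthase (FASN, chr17:82078338-82098294) followed the same course, with 36.5, 87.6 and 33.4 CPM in ONT, highest in replicate 2, and 548, 775 and 519 in Illumina (-3.55 ± 0.41, edgeR adjusted p = 4.81e-05). Fibronectin (FN1) was at -3.38 ± 0.21, the scaffold protein AHNAK at -3.58 ± 0.30, the carboxypeptidase CPD at -3.45 ± 0.23 and the deubiquitinase USP24 at -3.37 ± 0.24. EEF1A2, a tissue-restricted translation elongation factor of ordinary length, was also in this group, with 27.4, 66.2 and 33.4 CPM against 401, 573 and 580 (-3.61 ± 0.32). Divided by exon length its ratio was still -3.11, whereas that of MUC16 was -0.18.

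The relation to exon length was measured in each RNA sample as the slope of the log2 ratio on log2 exon length. The slopes were -0.57, -0.47 and -0.57 per doubling of length over 25800 genes, with a mean of -0.54 ± 0.056 (SD, n = 3 pairs). All 3 pairs were negative, with p = 0.25 by exact sign-flip test, the smallest p that 3 pairs allow. For genes overlapping no other gene the slope was -1.02 ± 0.072. Among protein-coding genes without overlap, the 21 genes of at most 500 nt had a median log2 ratio of 3.51, and the 457 from 1001 to 2000 nt of 1.07. The 1131 from 3001 to 5000 nt were at -0.60, and the 598 above 8000 nt at -1.30. Dividing Illumina counts by exon length left medians of 0.63, -0.07, -0.38 and 0.45 in these bins, so the shortest and the longest bins ended above 0 and the middle ones below it. By exonic GC content, the medians of all nuclear protein-coding genes on counts ranged from -0.53 to -0.22, and without overlap from -0.74 to -0.31. Median exon length differed between these bins, from 6710 nt at up to 40% GC to 3646.5 nt above 60% among all nuclear protein-coding genes. With Illumina counts per exon length their medians went from 0.43 to -0.32 between the same 2 bins.

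Levels were also compared over nuclear protein-coding genes with at least 10 counts in both libraries of a pair, 13342 to 14365 genes. Other gene classes did not enter. Spearman's rank correlation between the platforms was 0.757, 0.787 and 0.757 in the 3 RNA samples on counts. With Illumina counts per exon length it was 0.791, 0.801 and 0.794. Over those without overlap (3455 to 3719 genes) the values were 0.782, 0.814 and 0.784, and 0.843, 0.860 and 0.845. These are descriptions over genes of 1 RNA sample each, and genes are not independent replicates.

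**Figure D3:**
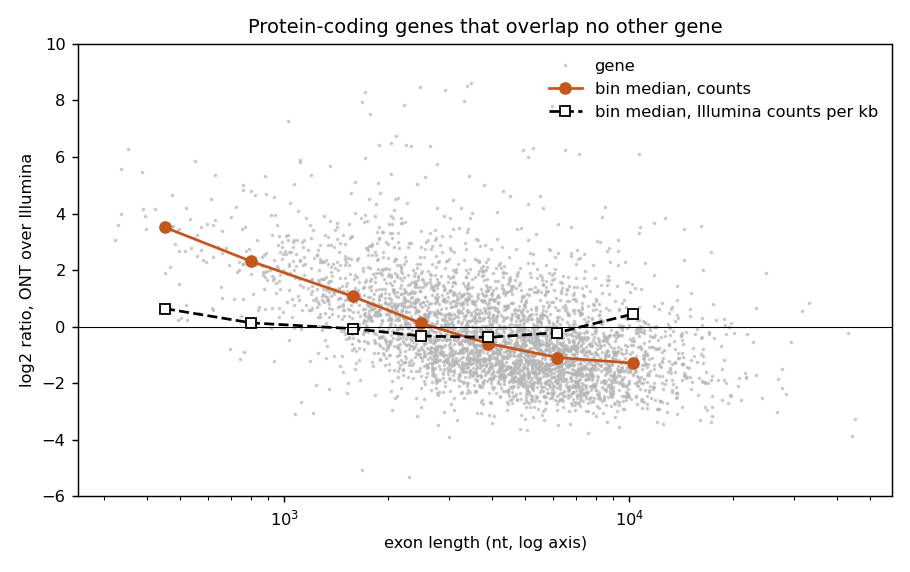
Log2 ratio of ONT over Illumina (y axis) against exon length in nt (x axis, log scale) for protein-coding genes that overlap no other gene. Grey points are genes, filled circles are bin medians on counts, from 3.51 in the shortest to -1.30 in the longest bin, and open squares are bin medians after Illumina counts were divided by exon length. With gene totals as library sizes the values on counts are lower by a median of 1.59.

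Other lists ordered themselves between these ends. S100 proteins, small calcium-binding proteins, were called higher in 13 of 13 tested members (median 3.19, and 10 of 13 with gene totals). S100A6 (chr1:153534599-153536244) had 9073, 8460 and 10251 CPM in ONT and 300, 323 and 374 in Illumina, a ratio of 4.80 ± 0.17. The overlapping antisense gene ENSG00000238279 held 99.9% of its ONT and 68.6% of its Illumina count. S100A16, the lowest member, was at 1.42 ± 0.21 and at -0.19 with gene totals. Metallothioneins, which bind zinc and copper, were higher in 5 of 6. MT2A (chr16:56608584-56609497) had 2535, 2698 and 2660 CPM in ONT and 148, 168 and 196 in Illumina (3.95 ± 0.18, edgeR adjusted p = 1.19e-13).

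Subunits of the proteasome, the complex that degrades tagged proteins, were called higher in 31 and lower in 3 of 35, with a median of 1.29. This is below the 1.59 of the zero point, and with gene totals 8 were higher and 16 lower. PSMB3, of the core particle, was at 2.46 ± 0.18, and PSMD2, of the regulatory particle, at -1.39 ± 0.27. Translation factors, with 22 higher and 9 lower (median 0.73), likewise turned to 7 and 25. EEF1B2 was at 3.92 ± 0.21 and EIF4G1, the large scaffold of the cap-binding complex, at -2.46 ± 0.24. EEF1A1, with 3004, 2298 and 3110 CPM against 1086, 857 and 987, was at 1.52 ± 0.17 and at -0.09 with gene totals. Aminoacyl-tRNA synthetases, which charge tRNAs, were higher in 2 and lower in 13 of 20, and SR and hnRNP splicing factors higher in 6 and lower in 18 of 36. Per exon length the counts were 9 and 4 for the synthetases and 20 and 10 for the splicing factors. With library sizes from the sequins the synthetases had 0 and 4, and the splicing factors 2 and 7. SWI/SNF chromatin remodelling subunits were higher in 2 and lower in 18 of 24, with SMARCA4, an ATPase of the complex, at -1.51 ± 0.33. Per exon length the SWI/SNF median was 0.33 and SMARCA4 was at 0.67.

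**Figure D4:**
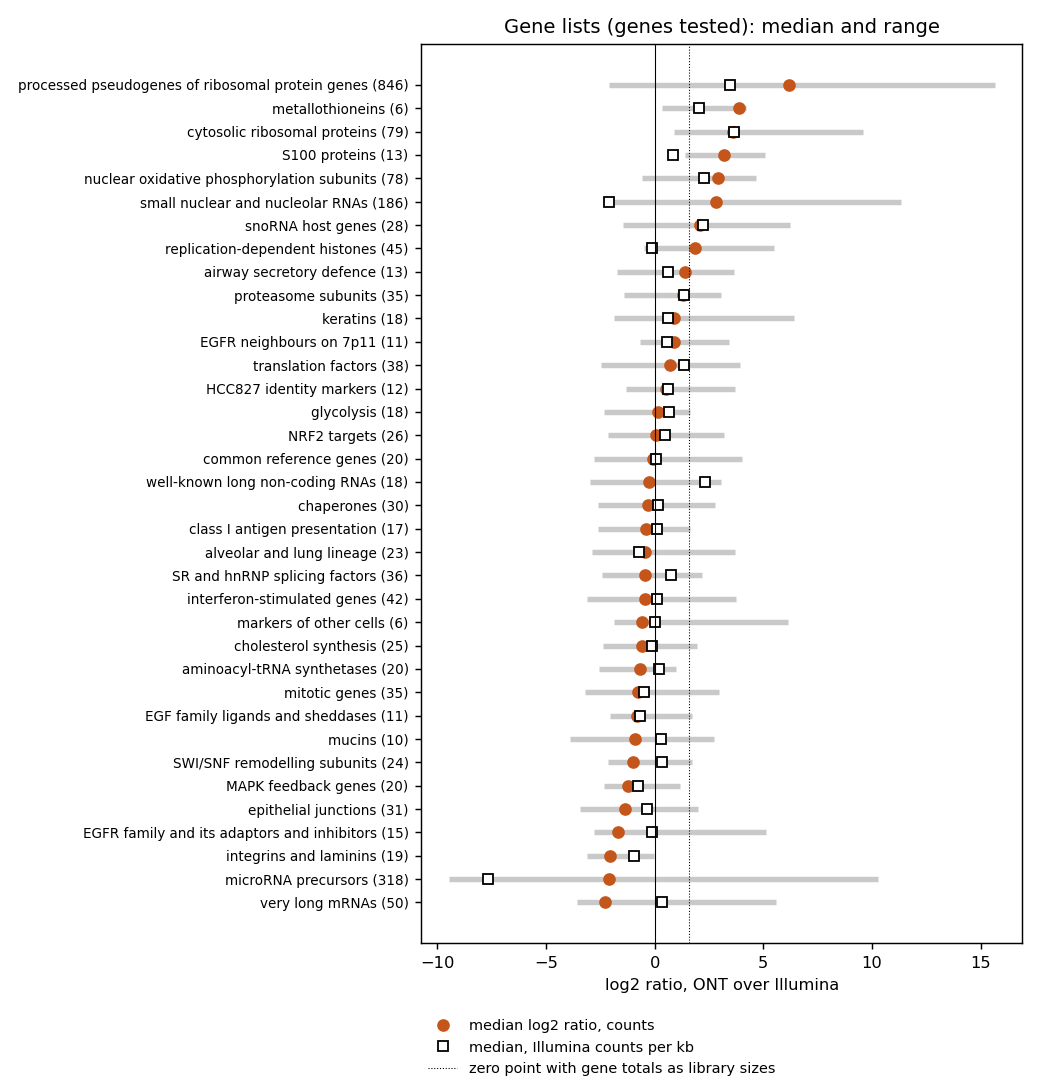
Median (filled circles) and range (grey bars) of the log2 ratio of ONT over Illumina (x axis) for each gene list, with the number of tested genes in parentheses, and the median after Illumina counts were divided by exon length (open squares). The dotted line marks the zero point with gene totals as library sizes: lists with circles between 0 and that line, such as proteasome subunits at 1.29, change sign there.

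EGFR (ENSG00000146648, chr7:55019017-55211628), the receptor tyrosine kinase on which the line depends, had 243, 326 and 169 CPM in ONT and 2021, 1571 and 1457 in Illumina. The groups did not overlap, and the ratio was -2.77 ± 0.22 (edgeR adjusted p = 4.76e-09), or -4.35 with gene totals and -0.55 per exon length. Of 15 tested genes of the EGFR family, its adaptors and inhibitors, 2 were called higher and 9 lower (median -1.70), and per exon length 6 and 5 (median -0.14). The adaptor GAB1 was the highest, with 1120, 897 and 1101 CPM against 32.9, 32.1 and 25.9 (5.10 ± 0.20), but the intronic pseudogene ENSG00000228981 equalled 99.8% of its ONT and 70.6% of its Illumina count. Of 11 EGF family ligands and sheddases 3 were higher and 6 lower. The highest, the sheddase ADAM17 (1.73 ± 0.23, and 0.11 with gene totals), overlaps IAH1, which had 124% of its ONT and 92.6% of its Illumina count.

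Genes that restrain or report MAPK signalling were higher in 2 and lower in 15 of 20 (median -1.22). Cyclin D1 (CCND1) was at -1.26 ± 0.17 and the inhibitor SPRED2 at -2.34 ± 0.21. The feedback inhibitor SPRY1 was at 1.15 ± 0.21, and at -0.45 with gene totals. CDK4, the kinase that cyclin D1 activates (chr12:57747727-57756013), had 2145, 1588 and 2795 CPM in ONT and 1098, 1148 and 1357 in Illumina. Its ratio of 0.86 ± 0.19 (edgeR adjusted p = 3.94e-04) turned to -0.76 with gene totals, and its opposite-strand neighbour TSPAN31 had 99.97% of its ONT and 60.4% of its Illumina count. Among the 11 tested neighbours of EGFR on 7p11, 6 were higher and 2 lower, with a median of 0.88 that turns to -0.72 with gene totals. SEC61G, a small subunit of the protein translocation channel, was at 3.40 ± 0.17, and the lanthionine synthetase-like gene LANCL2 at -0.68 ± 0.16 and at -0.03 per exon length.

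Among epithelial genes, keratins, the intermediate filament proteins, were higher in 11 and lower in 3 of 18 with a median of 0.90 (3 and 10 with gene totals). KRT19 (chr17:41523617-41528308) had 2967, 4046 and 4815 CPM in ONT and 1263, 1982 and 1970 in Illumina, a ratio of 1.18 ± 0.20 that turned to -0.41 with gene totals. KRT80 was at -1.87 ± 0.20. Junction genes were higher in 4 and lower in 20 of 31 (median -1.34). E-cadherin (CDH1) was at -1.30 ± 0.18 and p120-catenin (CTNND1) at -3.45 ± 0.20, while plakoglobin (JUP) was at 0.76 ± 0.17 and at -0.82 with gene totals. TJP1 of tight junctions was at 1.99 ± 0.18, with the intronic HMGN2P5 at 79.3% of its ONT and 28.4% of its Illumina count. Integrins and laminins, which anchor cells to the basement membrane, were higher in 0 and lower in 18 of 19 (median -2.07). ITGA3 was at -2.09 ± 0.20 and LAMC1 at -3.10 ± 0.20, and per exon length 5 of the 19 were higher and 12 lower. The medians per exon length were 0.61 for keratins, -0.36 for junction genes and -0.97 for integrins and laminins.

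Of 10 mucins 3 were higher and 7 lower, per exon length 5 and 2, and with gene totals 1 and 8. MUC5B, a gel-forming airway mucin (chr11:1223066-1262172), had 51.1, 74.0 and 42.9 CPM in ONT and 505, 568 and 394 in Illumina (-3.13 ± 0.22, edgeR adjusted p = 2.95e-10). MUC1, the short membrane mucin of the list, was at 1.74 ± 0.20. Airway defence genes were higher in 8 and lower in 5 of 13, and lung lineage genes higher in 3 and lower in 9 of 23. SFTA2, a small secreted protein of the lung (chr6:30931353-30955636), had 583, 493 and 662 CPM in ONT and 38.7, 40.96 and 54.9 in Illumina (3.69 ± 0.20). The surfactant lipid enzyme LPCAT1 was at -2.88 ± 0.20.

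**Figure D5:**
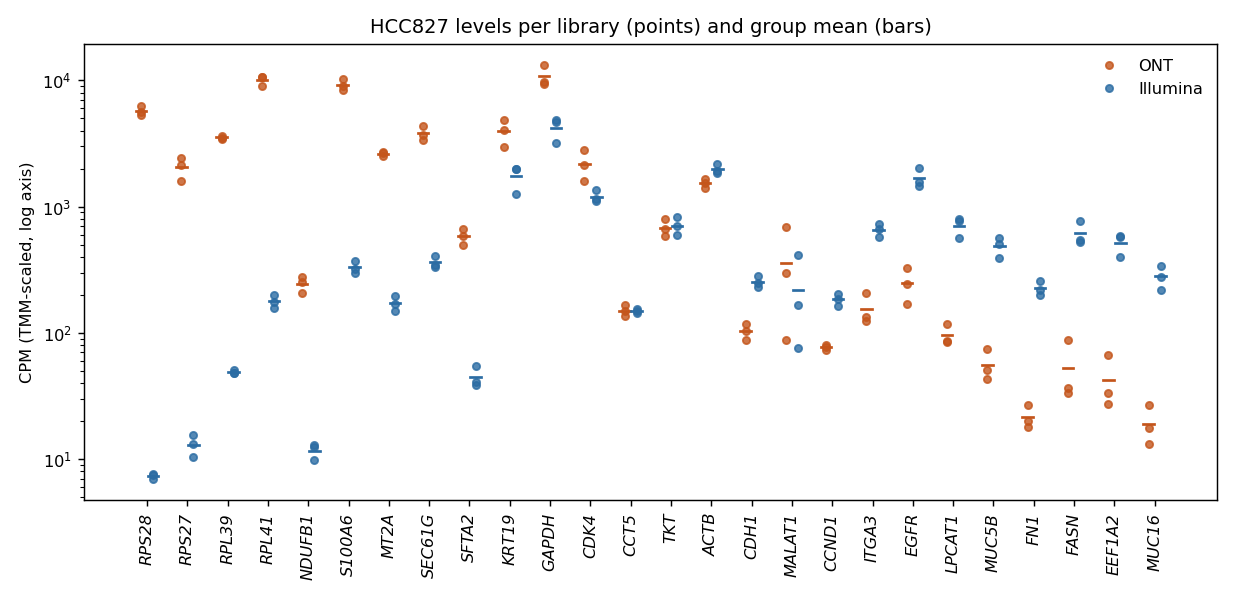
CPM on TMM-scaled library sizes (y axis, log scale) of selected named genes (x axis) in each HCC827 library, with points for libraries and bars for group means (n = 3 each). From RPS28 with 5300 to 6211 CPM in ONT and under 8 in Illumina to MUC16 with 13.1 to 26.5 and 219 to 341, the order of the platforms reverses. With gene totals as library sizes the log2 ratios of GAPDH, CDK4 and KRT19 also turn below 0, and of these CDK4 alone is called lower.

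Of 20 common reference genes 7 were called higher and 9 lower, with a median of -0.05. With gene totals 3 were higher and 15 lower (median -1.66). GAPDH had 9416, 9730 and 13298 CPM in ONT and 3211, 4667 and 4808 in Illumina, a ratio of 1.35 ± 0.18 that turned to -0.25 with gene totals. Its antisense gene ENSG00000269968 had 98.6% of its ONT and 48.6% of its Illumina count. ACTB, with 1530, 1646 and 1411 against 1924, 2186 and 1830 CPM, was at -0.37 ± 0.15 (edgeR adjusted p = 0.0314), a call lost in 14 of 19 alternatives. The ferritin genes FTL and FTH1, which store iron, were at 2.52 ± 0.18 and 1.94 ± 0.15, but BEST1 on the opposite strand had 99.4% of the ONT and 70.0% of the Illumina count of FTH1. The abundant list genes nearest a ratio of 1 were the chaperonin subunit CCT5, with 148, 135 and 165 against 148, 143 and 155 CPM, the translation factor EIF3D (0.02 ± 0.17) and transketolase (TKT, -0.05 ± 0.17). With gene totals CCT5 and EIF3D were called lower, at -1.60 and -1.58. In glycolysis 7 of 18 genes were higher and 8 lower, with TPI1 at 1.64 ± 0.19 and HK2 at -2.34 ± 0.21. Of 42 interferon-stimulated genes 10 were higher and 21 lower, with the ubiquitin-like modifier ISG15 at 3.75 ± 0.21. Of 17 genes of class I antigen presentation 7 were higher and 8 lower, with HLA-B at 1.62 ± 0.19. Of 26 NRF2 targets 11 were higher and 8 lower, with thioredoxin (TXN) at 3.20 ± 0.20. With gene totals glycolysis and class I antigen presentation each had 0 higher and 15 lower, interferon-stimulated genes 6 and 33, and NRF2 targets 4 and 18.

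Among the known long non-coding RNAs, the level of MALAT1 differed widely between the RNA samples. MALAT1, a nuclear RNA of splicing speckles (chr11:65497640-65508073), had 684, 296 and 88.4 CPM in the ONT libraries of samples 1 to 3 and 410, 166 and 75.3 in their Illumina libraries. The order of the samples was the same on both platforms, and the groups overlapped. The ratio of 0.71 ± 1.03 did not pass the test (edgeR adjusted p = 0.564), but with the RNA sample as a block it was 0.60 (edgeR adjusted p = 0.0020). NEAT1, the scaffold of paraspeckles, had 24.7, 33.5 and 6.38 CPM against 45.5, 38.5 and 29.0, at -0.81 ± 0.61 (edgeR adjusted p = 0.279), and -1.07 with the block (edgeR adjusted p = 0.012). Per exon length NEAT1 was called higher in ONT, at 1.94 (edgeR adjusted p = 0.033). With gene totals MALAT1 lies below 0 as well. TUG1 and NORAD, a regulator of gene silencing and a cytoplasmic RNA that binds Pumilio proteins, were called lower at -2.95 ± 0.20 and -2.85 ± 0.20.

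By biotype, processed pseudogenes were called higher in 2204 and lower in 697 of 3298 tested, with a median of 2.87. For lncRNA genes the counts were 2302 and 1488 of 5381 (median 0.37), and for protein-coding genes 4568 and 6958 of 15123 (median -0.38). With at least 10 counts as the limit, 25474 ± 836 genes were detected in ONT and 22112 ± 2457 in Illumina (mean ± SD, n = 3; exact permutation p = 0.10). After every library was thinned to 9973517 counts the order turned, with 16849 ± 514 in ONT and 19392 ± 280 in Illumina (exact permutation p = 0.10). By biotype, detection was counted for protein-coding genes, lncRNA genes and processed pseudogenes only. Of these, processed pseudogenes stayed more often detected in ONT at equal depth, 1755 ± 74.3 against 1475 ± 28.9. Protein-coding genes numbered 11707 ± 319.5 against 13439 ± 76.4, and lncRNA genes were also fewer in ONT. The 1000 most counted genes took 79.0, 76.0 and 78.4% of ONT counts and 50.2, 52.6 and 53.2% of Illumina counts.

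The ratios were set beside those of the series' other lung adenocarcinoma line, H1975, measured in the same design. In a fit of all 12 libraries the ratio differed between the lines for 2105 of 29395 genes (7.16%), 1478 (5.03%) with the higher ratio in HCC827 and 627 (2.13%) with the lower. Without HCC827 ONT replicate 3 the count was 3782. Among the named genes, C3, a complement component, had a log2 ratio of 1.52 in HCC827 and -2.18 in H1975 (difference 3.70, edgeR adjusted p = 1.39e-08). In the HCC827 fit C3 was at 1.44 ± 0.22 and turned to -0.15 with gene totals. The overlapping gene GPR108, on the same strand, had 3271 ONT counts to the 3338 of C3 in HCC827, and 3295 Illumina counts to its 1003. PDGFRB, a growth factor receptor of fibroblasts (chr5:150113839-150155872), had 188, 119 and 162 ONT counts in HCC827 and 1, 3 and 1 Illumina counts. Its ratio was 6.25 in HCC827 and -0.58 in H1975 (difference 6.83, edgeR adjusted p = 1.21e-07). The lncRNA gene LINC02582 was at -0.78 and 3.11, a difference of -3.89. MUC5B was at -3.06 and -1.43, from a level below 1 CPM in H1975. The hosts PNPLA8, at 7.45 and 4.47, and ARMC9, at 8.79 and 7.59, also had the higher ratio in HCC827. Such differences compare lines as well as platforms, and a low level on either platform in either line makes a ratio uncertain. Their cause was not tested.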

How the data were processed

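Counts of the 3 ONT and 3 Illumina HCC827 libraries were used as deposited, 1 file per library, as whole numbers of reads per gene without normalization. Minimap2 2.17, featureCounts and the GRCh38 build are named in the submitters' processing notes. The file header of Illumina replicate 3 names a repeat run. Genes were joined by Ensembl identifier without version (58444 of 58676 ONT and 60617 Illumina genes, 41239 with the same version), sequins were left out, and symbols, biotypes, exon lengths and GRCh38 coordinates came from GENCODE release 44 (58207 matched). Exon length is the union of all exons annotated for a gene, not the length of an expressed transcript. Strand use is unknown, so counts of overlapping genes and of near-identical copies are uncertain.

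Tests used edgeR 4.0.16 in R 4.3.3: TMM, filterByExpr, robust quasi-likelihood fit of platform alone over the 6 libraries, glmTreat for the 2-fold test, two-sided, Benjamini-Hochberg adjustment. Standard errors came from the fold and its F value. DESeq2 1.42.0 and the other settings of the closing section were alternatives, and the steps were tested on simulated data. The replicate numbers are those of the RNA samples, and the deviations of same-numbered libraries from their group means correlated at 0.67, 0.424 and 0.545 over 6502 genes, so they pair the samples. The main fit did not use this pairing. Its p-values measure the spread among the 3 libraries of each platform, which includes differences between cultures and between library preparations.

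Members and lists were chosen with earlier results of these data known. Named genes followed a rule: the largest and smallest ratios among called genes without overlap at 5 CPM or more, the highest, lowest and most abundant member of each list, a fixed set, genes at 0 on 1 platform, those nearest a ratio of 1, near-equal overlapping pairs and differences between lines. By that rule the overlapping pairs were near-equal in ONT counts and unequal in Illumina counts. Hosts, families and RPL41 copies were chosen after their values were seen. Identity to the parent transcript was computed with edlib 1.3.9.post1. A group at 0 was given a floor of 3 counts in all, and floors cover counting error only.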

Additional observations from a re-analysis of the deposited data

Results flagged for a closer look

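For 16 named genes the ONT over Illumina ratio differed between HCC827 and H1975 in the edgeR fit of 12 libraries, where 7.16% of all genes did. The differences in log2 ratio, HCC827 minus H1975, were largest for PDGFRB at 6.83, C3 at 3.70, LINC02582 at -3.89 and PNPLA8 at 2.98. Those of MUC5B (-1.63), SPRED2 (-1.47), HERC2 (1.19) and ARMC9 (1.19) were also above 1 in size. TJP1 was at 0.814, RBFOX2 at 0.583 and IL6ST at 0.615. For 5 further genes the call was lost in 3 or 4 of the 8 alternatives of that fit: H4C12 (0.865), H2BC5 (-0.637), CPD (0.737), SNHG25 (0.787) and TXNRD1 (0.554). That of IL6ST was lost in 1, without HCC827 Illumina replicate 2. C3 had 23.7 CPM in HCC827 ONT and 8.27 in HCC827 Illumina, against 53.3 and 242 in H1975.

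Some features stand in the files of 1 platform alone and entered no comparison. Of the Illumina-only features, ENSG00000288534 had the highest count in HCC827, 46437 over the 3 libraries. Of the ONT-only features, ENSG00000262477 had the highest, 105475.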

How the results depend on the processing

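With the replicate block, which uses the pairing of RNA samples, 10564 genes were called higher and 10210 lower, 19820 of the 19908 calls kept their direction, and among the named genes the block changed the calls of MALAT1 and NEAT1 alone. Scaling by sequins called 8036 higher and 6799 lower of 25956 tested and ended the calls of RPL4, SDHA, H2BC5, CDK4, LANCL2, KRT19, JUP, LINC02582 and ACTB. Fewer genes were tested in the next 3 settings. With a filter of 10 CPM, 4737 were higher and 5170 lower (3262 and 2711 beyond 2-fold), among genes with the same identifier version 5520 and 4941 (4276 and 3321), and among genes without overlap 2616 and 2429 (1944 and 1415). With gene totals as library sizes they were 4968 and 17139 (3593 and 14014). Gene totals and the removal of intronic genes from hosts were chosen after seeing the data, as was the fit without mitochondrial and ribosomal protein genes. Named genes that gene totals turned were RPL4 (-0.70), EEF1A1 (-0.089), H2BC5 (-0.85), S100A16 (-0.19), SPRY1 (-0.45), CDK4 (-0.76), KRT19 (-0.41), JUP (-0.82), GAPDH (-0.25) and C3 (-0.15). Of these, RPL4, H2BC5, CDK4 and JUP were called lower with gene totals, and the others were not called. Dividing Illumina counts by exon length turned SDHA (0.75), H2BC5 (-1.24), MIR3654 (-1.87) and SMARCA4 (0.67, not called). It called NEAT1 higher at 1.94 (edgeR adjusted p = 0.033). Thinning to equal depth turned the difference in detected genes to -2543. Taking intronic genes out of hosts moved their median to -0.68. Leaving out 1 library gave 1529 to 3782 genes that differ between the lines, the highest without ONT replicate 3, and 15.64 to 28.94% variation among ONT and 11.89 to 14.83% among Illumina libraries. ONT replicate 2 is the library without which the ONT value fell to 15.64%. The cause of the changes in the other settings was not tested. Leaving out Illumina replicate 2, the library with the fewest counts, gave 28023 tested genes, beside 27396 and 27546 without Illumina replicates 1 and 3.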

Other observations

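Short ribosomal RNA genes (median exon length 119 nt) took 0.0549 ± 0.0151% of ONT and 0.00362 ± 0.00351% of Illumina counts (mean ± SD, n = 3 each). Lists not described above were cholesterol synthesis, with 7 higher and 14 lower of 25, and mitotic genes, with 8 higher and 21 lower of 35. The mitotic median was -0.75, beside 0.01 over all tested genes, and the securin gene PTTG1 was the highest member at 2.98 ± 0.19, while ANLN, of the cleavage furrow, was the lowest at -3.22 ± 0.23.

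Genes that belong to the other line gave a low level in HCC827 ONT libraries. Of 36 genes with at least 5 CPM in H1975 Illumina and at most 3 counts in HCC827 Illumina, 33 had at least 100 counts in H1975 ONT. Their level in HCC827 ONT had a median of 0.131% of that in H1975 ONT (quartiles 0.00638 to 0.720%). In the reverse direction the median over 20 of 21 genes was 0.104% (quartiles 0.0235 to 0.348%).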
